A study of Mus musculus with 9 samples.

Results

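The 10 genes described here encode ligands of the TGF-beta family, their receptors, proteins that hold the ligand in a latent store, and a secreted matrix protein induced by the pathway: Tgfb1, Tgfb2, Tgfb3, Tgfbr1, Tgfbr2, Tgfbr3, Tgfbi, Ltbp1, Ltbp2 and Inhba. They were taken by symbol and are 10 of the 20778 gene rows of the deposited table; all 10 passed the filter on low values (an average of 10 or more across the 9 libraries), as did 13773 rows in all. GL261 is a mouse glioblastoma line, and the study set GL261 tumours grown in mice beside GL261 grown in vitro with brain cells. The tumour group was GL261 carrying mCherry, with 50000 cells placed in the striatum; the hosts were male C57BL/6 mice, 7 weeks old, and the tissue was taken at day 14; the protocol names 5 mice, and whether each library is 1 mouse is not given. The other groups were penta-cultures of GL261 (seeded at 1000000 cells per ml) with astrocytes, microglia, pericytes and endothelial cells, all primary and taken from brains of male C57BL/6 mice aged 6 to 10 weeks, kept on a petri dish for the group called 2D culture and in a fibrin hydrogel for the group called 3D bioink. The primary cells were bead-sorted fractions, and the fraction left after sorting served as astrocytes. Each group had 3 libraries. Whether those of a culture group came from separate cultures is not given either, so every p-value measures only how much these libraries varied, and that variation may be technical.

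TGF-beta is secreted in a latent complex, in which the ligand is caged by its own propeptide and tethered to matrix by latent TGF-beta binding proteins, and integrins or proteases release it. Free ligand binds the type II receptor, which recruits and phosphorylates the type I receptor, and this phosphorylates SMAD2 and SMAD3, which enter the nucleus with SMAD4. In glioblastoma the pathway is known for suppressing immune cells and for promoting invasion and matrix production.

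The values are the authors' normalized counts. They summed to between 13548461 and 16388074 per library, but the sums follow the normalization, and the read depth is unknown. Across genes, log2 values of libraries of 1 group correlated at 0.927 to 0.970, and the lowest of these values involved 3D bioink replicate 1. A digestion before RNA isolation (3 h in collagenase II, 600 U per ml, then a 70 µm mesh) is recorded for the 3D bioink only, so digestion and culture format cannot be told apart. The centre of the comparisons depended on scaling: for 3D bioink against tumours the median log2 difference of all genes was -0.12 as deposited and 0.14 after all libraries were set to equal totals, and the genes called higher and lower numbered 3737 and 5132 as deposited against 4886 and 3825. Small differences are therefore given below with their values under other scalings.

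2D culture was the group with the lowest mean for 9 of the 10 genes. Against tumours, 8 of the 10 genes were lower in 2D culture and 1, Tgfbr3, was higher, where 27.0% and 27.3% of all tested genes were called lower and higher (54.3% either way). Against 2D culture, 8 of the 10 were higher in 3D bioink and 0 lower, beside 27.0% and 32.2% of all genes (59.2% either way); Tgfb3 and Tgfbr3 were the other two. Against tumours, 3D bioink was mixed, with 4 genes higher (Tgfbr1, Tgfbr3, Ltbp2 and Inhba) and 4 lower (Tgfb1, Tgfb3, Tgfbr2 and Tgfbi), beside 27.1% and 37.3% of all genes (64.4% either way); with equal library totals the split was 5 and 3. The median log2 difference of the 10 genes was -0.75 for 2D culture against tumours (0.01 for all genes), 0.93 for 3D bioink against 2D culture (-0.02 for all genes) and -0.02 for 3D bioink against tumours (-0.12 for all genes). The last of these medians turned to between 0.16 and 0.24 under the other scalings. Groups did not overlap for 7 of the 10 genes between 3D bioink and tumours (67.6% of all genes), for 9 between 2D culture and tumours (63.9%) and for 8 between 3D bioink and 2D culture (67.1%). The comparisons share libraries with each other, so their counts are not independent.

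**Figure D1:**
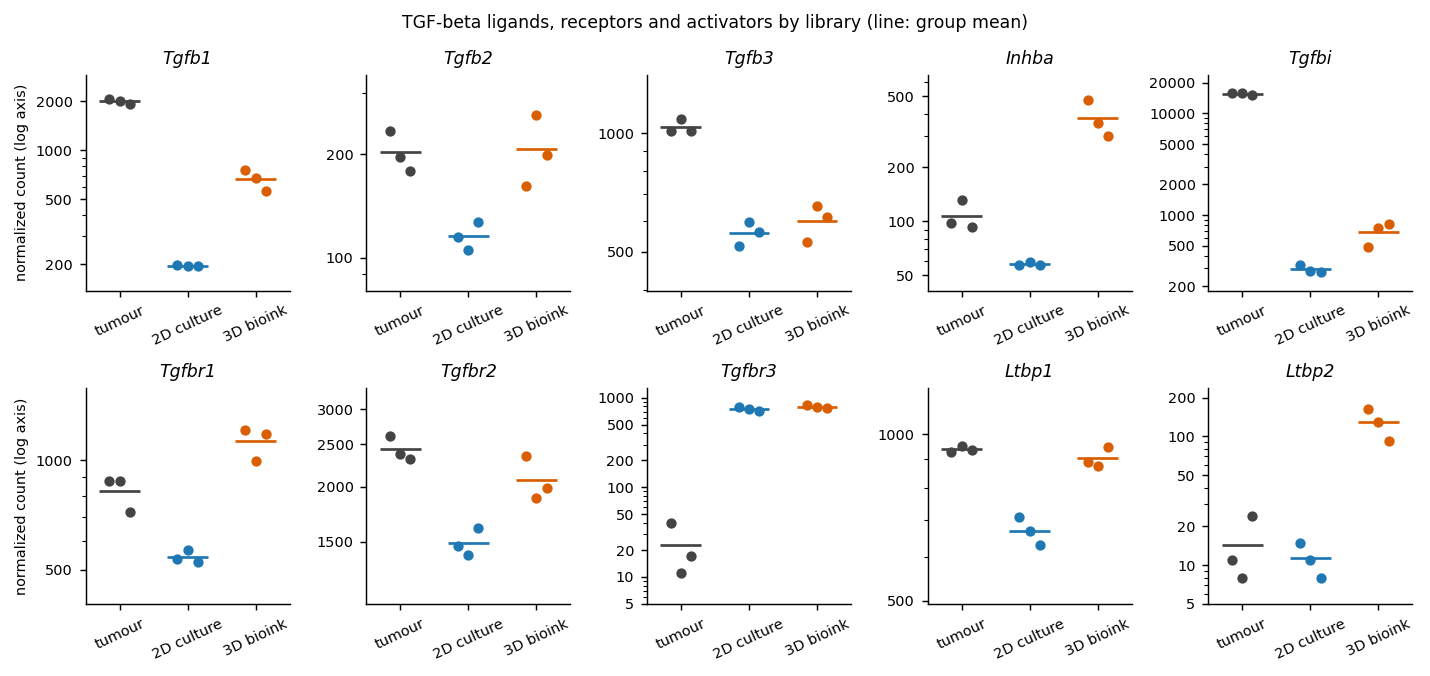
Normalized counts (vertical axes, log scale) of the 10 genes in each of the 9 libraries, with 1 panel per gene, 1 point per library and a line at each group mean. Tgfb1 and Tgfbi are highest in all 3 tumour libraries, Tgfbr3 is at 11 to 40 in tumours and above 700 in all 6 cultures, and Ltbp2 and Inhba are highest in 3D bioink.

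The 3 ligand genes Tgfb1, Inhba and Tgfb2 did not separate the groups alike. From low to high, Tgfb1 ran 2D culture, 3D bioink, then tumours, and Inhba ran 2D culture, tumours, then 3D bioink. Tgfb2 had the same order of means as Inhba, but its tumours and 3D bioink overlapped. The 250 bases before their annotated starts are shown because these genes sit in 1 pathway yet did not separate the groups alike. All of these bases lie outside the annotated exons of the 10 genes. The sequences are RefSeq's on GRCm38.p6, read 5′ to 3′ on the gene's strand, with matches to the SMAD-binding element CAGAC (or its reverse complement GTCTG) in capitals. The windows are chr7:25686752-25687001 on the plus strand for Tgfb1, chr1:186705990-186706239 on the minus strand for Tgfb2 and chr13:16011601-16011850 on the plus strand for Inhba.
Tgfb1: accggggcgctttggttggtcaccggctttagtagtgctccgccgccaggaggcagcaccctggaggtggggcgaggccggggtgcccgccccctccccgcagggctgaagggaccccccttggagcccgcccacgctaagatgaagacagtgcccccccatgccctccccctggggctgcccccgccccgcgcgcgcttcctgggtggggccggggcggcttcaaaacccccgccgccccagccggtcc
Tgfb2: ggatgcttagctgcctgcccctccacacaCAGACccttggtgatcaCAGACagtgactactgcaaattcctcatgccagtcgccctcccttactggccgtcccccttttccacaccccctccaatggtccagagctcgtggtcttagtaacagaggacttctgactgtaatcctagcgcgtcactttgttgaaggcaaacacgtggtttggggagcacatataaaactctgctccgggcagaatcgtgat
Inhba: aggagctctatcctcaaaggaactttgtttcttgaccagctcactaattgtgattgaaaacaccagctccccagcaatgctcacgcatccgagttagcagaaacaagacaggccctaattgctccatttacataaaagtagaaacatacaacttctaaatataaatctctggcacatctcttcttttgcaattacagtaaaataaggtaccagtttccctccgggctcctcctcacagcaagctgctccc
The Tgfb2 window holds 2 matches, which begin 221 and 204 bases before the start, and the Tgfb1 and Inhba windows hold none. Among the 10 genes, 8 had a promoter entry, with 10 windows between them, and 7 of these 10 windows held the SMAD element, against 42.2% of all 32851 windows of the same length. The AP-1 motif TGANTCA (6.75% of all windows) and the TEAD motif GGAATG or CATTCC (12.6%) were in 0 of the 10. The windows differed in base composition, with 75.2% G and C for Tgfb1, 53.6% for Tgfb2 and 43.2% for Inhba, around a median of 52.4% for all windows. A match is a run of letters and not a measured binding site.

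Tgfb1, the main TGF-beta isoform of immune cells and platelets, was highest in tumours. Its normalized counts stood at 2077, 2021 and 1917 in the tumours, 198, 194 and 194 in 2D culture, against 755, 679 and 563 in 3D bioink (chromosome 7, 25687002 to 25705077, plus strand, GRCm38). The 3 groups were fully apart, and the 2D libraries lay within a few counts of each other. The mean was 2005 ± 81.2 in tumours (SD, n = 3), and Tgfb1 was 10.3-fold lower in 2D culture (log2 difference -3.35 ± 0.11 SE, adjusted p = 5.36e-09, limma with Benjamini-Hochberg adjustment) and 3.01-fold lower in 3D bioink (log2 difference -1.60 ± 0.11 SE, adjusted p = 8.25e-07) than there. 3D bioink exceeded 2D culture by 3.41-fold (log2 difference 1.75, adjusted p = 5.60e-07).

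Microglia and macrophage markers were also highest in tumours, and fewer of them differed between the cultures. The summed normalized counts of 15 microglia markers were 34856 to 37718 in tumours, 975 to 1086 in 2D culture, against 1656 to 1758 in 3D bioink, and 14 of the 15 fell in each culture against tumours. Between the cultures 5 of the 15 rose from 2D culture to 3D bioink and 10 were not called (5 rose and 2 fell with quantile normalization). Tyrobp was listed at 0 in all 6 cultures, and C1qa, a complement subunit made by microglia, was listed at 0 in 2D culture. The summed level of 14 macrophage and monocyte markers was 34654 to 36136 in tumours, 172 to 209 in 2D culture, against 683 to 908 in 3D bioink; of the 12 tested, 11 fell in 3D bioink and 12 in 2D culture against tumours, and 9 rose from 2D culture to 3D bioink (5 with quantile normalization). Adgre1, which encodes the macrophage antigen F4/80, was listed at 0 in 2D culture and at 2, 6 and 3 in 3D bioink. Microglia were seeded into both cultures, yet these defining markers were near or at 0 there. Pf4, a platelet chemokine, was 216, 223 and 185 in tumours and listed at 0 in all 6 cultures, whereas Itga2b, the other platelet marker tested, was 25, 65 and 72 in tumours, 65, 49 and 41 in 2D culture, against 138, 145 and 121 in 3D bioink, and was called higher there than in tumours. Their part in the Tgfb1 difference was not tested. Tyrobp, Ly6c2, Adgre1 and Pf4 were among the genes that passed the filter on low values only through the tumours. The marker counts above include the calls of Tyrobp, Ly6c2 and Adgre1. They also include other markers with low culture values, such as Chil3 and Gpr34. In 2D culture against tumours the log2 difference of Chil3 was -6.45, or -3.80 with 10 added to each value in place of 1. For Gpr34 it was -4.13, or -1.80. Of all tested genes, 37.3% were lower in 3D bioink and 27.0% in 2D culture than in tumours. From 2D culture to 3D bioink, 27.0% rose. In these bulk libraries, fewer cells of a type and less RNA per cell cannot be told apart.

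Tgfb2, the isoform with the strongest need for a co-receptor, was lower in 2D culture, and tumours and 3D bioink overlapped. By library, its normalized counts ran 234, 196 and 178 in tumours, 115, 105 and 127 in 2D culture, against 161, 260 and 199 in 3D bioink (chromosome 1, 186622792 to 186705989, minus strand). All 3 libraries of 2D culture lay below every other library, with the widest spread in 3D bioink. Tgfb2 was 1.75-fold lower in 2D culture than in tumours (log2 difference -0.80 ± 0.20 SE, adjusted p = 0.00738), although with quantile normalization the call was lost (-0.48, adjusted p = 0.0735). It rose from 2D culture to 3D bioink by 0.81 on the log2 scale (adjusted p = 0.00637). Between 3D bioink and tumours the log2 difference was 0.01, with a 95% confidence interval of -0.44 to 0.46 (adjusted p = 0.970), so a difference of up to about that size in either direction was not detectable here.

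Tgfb3, the third isoform, was higher in tumours than in either culture. The libraries gave normalized counts of 1016, 1087 and 1012 in tumours, 517, 597 and 562 in 2D culture, against 529, 653 and 612 in 3D bioink (chromosome 12, 86056745 to 86079041, minus strand). The tumour libraries stood above all 6 cultures, and the cultures overlapped with each other. It fell by 0.80 on the log2 scale in 3D bioink (SE 0.10, adjusted p = 4.95e-05) and by 0.90 in 2D culture (adjusted p = 2.74e-05). The cultures differed from each other by 0.10, with an interval of -0.12 to 0.31 (adjusted p = 0.418); with equal library totals this was 0.29 and passed the threshold (adjusted p = 0.0231), as it did with equal upper quartiles (0.26, adjusted p = 0.0392).

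Inhba encodes the subunit of activin A, a ligand that signals through other receptors to the same SMAD2 and SMAD3. Across libraries its normalized counts were 98, 132 and 93 in tumours, 57, 59 and 57 in 2D culture, against 475, 356 and 300 in 3D bioink (chromosome 13, 16011851 to 16031621, plus strand). The 3 groups did not overlap, and 3D bioink was the highest. Inhba was 3.50-fold higher in 3D bioink than in tumours (log2 difference 1.79 ± 0.22 SE, adjusted p = 5.28e-05) and 6.54-fold higher than in 2D culture (2.66, adjusted p = 4.19e-06). It was 1.87-fold lower in 2D culture than in tumours (-0.87, adjusted p = 0.00655), a call that quantile normalization ended (-0.36, adjusted p = 0.196).

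Ratios within a library do not depend on that library's scaling factor. The log2 ratio of Tgfb3 to Tgfb1, each with 1 added, was -0.95 ± 0.07 in tumours, 1.51 ± 0.12 in 2D culture, against -0.15 ± 0.33 in 3D bioink (SD, n = 3). This ratio was highest in the 3 libraries of 2D culture and lowest in the 3 tumours, with 3D bioink between them. The log2 ratio of Tgfb2 to Tgfb1 was -3.31 ± 0.15 in tumours, -0.76 ± 0.14 in 2D culture, against -1.70 ± 0.46 in 3D bioink, where replicate 1 lay lowest at -2.22. The log2 ratio of Inhba to Tgfb1 was -4.22 ± 0.26 in tumours, -1.74 ± 0.04 in 2D culture, against -0.83 ± 0.15 in 3D bioink. For these ratios, and for that of Tgfbr3 to Tgfbr2, the 3 groups did not overlap. The exact permutation test over the 3 groups (F statistic) gave p = 0.00357 each, the smallest that 1680 arrangements allow. It stayed 0.00357 after Benjamini-Hochberg adjustment over the 4 ratios. Between any pair of groups the exact p was 0.1, the smallest that 3 against 3 libraries allow. These ratios mix genes of different lengths, so they show a change between groups and not which gene is more abundant. The ligand ratios share Tgfb1 as denominator, so they are not independent. In 2D culture all of these ligand genes were lower than in tumours, and Tgfb1 fell most (log2 difference -3.35). The higher ligand ratios there thus reflect the larger fall of Tgfb1.

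**Figure D2:**
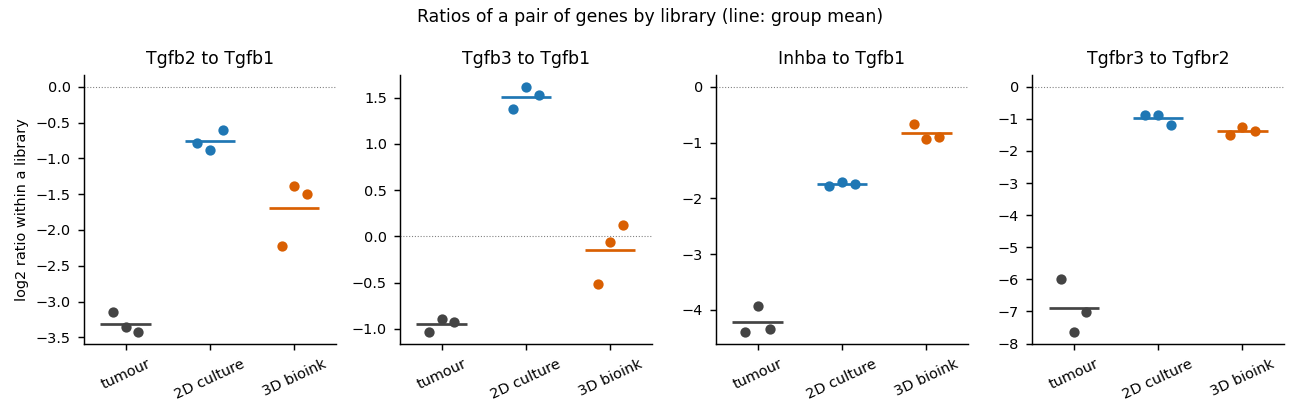
Log2 ratio of 4 pairs of genes within each library (vertical axes), with 1 point per library and a line at the group mean for tumours, 2D culture and 3D bioink. In all 4 panels the tumour libraries lie lowest; 2D culture is highest in 3 of the panels and 3D bioink in that of Inhba to Tgfb1.

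Per kilobase of annotated exon, Tgfb1 was the most abundant of the 4 ligand genes in tumours, at a mean level of 922, followed by Tgfb3 at 307, Tgfb2 at 39.0 and Inhba at 16.9. In 2D culture the order was Tgfb3 at 165, Tgfb1 at 89.8, Tgfb2 at 22.2 and Inhba at 9.03 per kilobase. In 3D bioink it was Tgfb1 at 306, Tgfb3 at 177, Inhba at 59.0 and Tgfb2 at 39.7. Tgfb1 therefore led in tumours and 3D bioink and Tgfb3 in 2D culture. These levels rest on union exon lengths, which may not be those used by the authors.

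Of the latency proteins, LTBP1 binds the latent complex and stores it in matrix. The normalized counts of Ltbp1 were 929, 950 and 935 in tumours, 709, 668 and 629 in 2D culture, against 891, 875 and 948 in 3D bioink (chromosome 17, 75005568 to 75392512, plus strand). 2D culture was the lowest, and the others overlapped. Ltbp1 fell by 0.49 on the log2 scale in 2D culture against tumours (adjusted p = 0.000211) and was 0.44 higher in 3D bioink than in 2D culture (adjusted p = 0.000438). For 3D bioink against tumours the log2 difference was -0.05 (95% confidence interval -0.21 to 0.10, adjusted p = 0.527), and its sign depended on scaling: with equal library totals it was 0.21 and passed the threshold (adjusted p = 0.0230).

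LTBP2, a relative that sits on elastic microfibrils and does not bind latent TGF-beta, was high in 3D bioink. The normalized counts of Ltbp2 were 11, 8 and 24 in tumours, 15, 11 and 8 in 2D culture, against 164, 129 and 92 in 3D bioink (chromosome 12, 84783212 to 84876532, minus strand). Every 3D bioink library exceeded all other 6, which overlapped and lay near the filter. Ltbp2 was 8.95-fold higher in 3D bioink than in tumours (log2 difference 3.18 ± 0.46 SE, adjusted p = 0.000196) and 11.3-fold higher than in 2D culture (3.39, adjusted p = 0.000149). Between 2D culture and tumours the log2 difference was -0.21 with an interval of -1.25 to 0.83 (adjusted p = 0.727), and it was 0.21 without tumour replicate 3.

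Summed levels of fibroblast, mesothelial and mural markers were also higher in 3D bioink than in 2D culture, with some single markers lower. The summed level of 10 fibroblast markers was 10597 to 11454 in 3D bioink, 4216 to 4274 in 2D culture and 14068 to 15148 in tumours. All 6 that were tested rose from 2D culture to 3D bioink (3 of 5 without 3D bioink replicate 1). This count includes Dcn, which passed the filter on low values only through 3D bioink. It also includes Lum, whose log2 rise was 4.70, or 2.22 with 10 added to each value in place of 1. Dpt and Twist2 were listed at 0 in tumours. Of 7 mesothelial markers the summed level was 6228 to 7183 in 3D bioink, 650 to 1030 in 2D culture and 497 to 580 in tumours, with Msln, Krt19 and Lrrn4 at 0 in tumours. From 2D culture to 3D bioink 3 of the 5 tested rose, and Msln and Krt19 fell (2 and 2 with quantile normalization or without 3D bioink replicate 1). With equal library totals or equal upper quartiles the counts were 3 and 1, as the call of Msln was lost. That call was also lost without any 1 of the tumour or 2D culture libraries. For 10 pericyte and mural markers the summed level was 2958 to 3116 in 3D bioink, 1037 to 1090 in 2D culture and 4273 to 4653 in tumours. Of these, 5 of 7 tested rose between the cultures, and Kcnj8 and Vtn were at 0 in 2D culture. The fibroblast and mural sums were highest in tumours, but most tested markers of these lists were called higher in 3D bioink than in tumours. These were 4 of 6 fibroblast markers, with 2 lower, and 5 of 7 mural markers, with 2 lower. Of 5 mesothelial markers, 4 were higher and 0 lower, counting Msln and Krt19, which were at 0 in tumours. Of all tested genes, 27.1% were higher and 37.3% lower in 3D bioink than in tumours (64.4% either way). From 2D culture to 3D bioink, 27.0% rose and 32.2% fell (59.2% either way). The part of these marker lists in the values of Ltbp2 and Inhba was not tested.

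The receptor genes did not move together. Tgfbr1 encodes the type I receptor kinase. Normalized counts for it were 878, 876 and 722 in tumours, 535, 568 and 525 in 2D culture, against 1214, 994 and 1179 in 3D bioink (chromosome 4, 47353222 to 47414931, plus strand). The 3 groups did not overlap, with 3D bioink highest. Tgfbr1 rose by 0.45 in 3D bioink against tumours (adjusted p = 0.00374; 0.71 with equal library totals), was 0.60 lower in 2D culture (log2 difference -0.60, adjusted p = 0.000811), and was 2.08-fold higher in 3D bioink than in 2D culture (1.05, adjusted p = 1.71e-05).

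Tgfbr2 encodes the type II receptor, which binds the ligand first. The normalized counts of Tgfbr2 were 2605, 2378 and 2318 in tumours, 1469, 1397 and 1609 in 2D culture, against 2356, 1883 and 1984 in 3D bioink (chromosome 9, 116084293 to 116175360, minus strand). 2D culture lay below all other libraries, while 3D bioink replicate 1 lay within the range of the tumours. Tgfbr2 fell by 0.71 on the log2 scale in 2D culture against tumours (adjusted p = 0.000114) and was 0.47 higher in 3D bioink than in 2D culture (adjusted p = 0.00157). The call of 3D bioink below tumours (-0.24, adjusted p = 0.0470) was lost under all 3 other scalings and turned to 0.03 with equal library totals (adjusted p = 0.815). It was also lost, at -0.17 to -0.27, without any 1 of the tumour libraries, without 2D culture replicate 1 or 2, and without 3D bioink replicate 2 or 3; without 3D bioink replicate 1 the call held at -0.33.

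Tgfbr3 encodes betaglycan, a co-receptor without a kinase that presents TGF-beta2 to the type II receptor and also binds inhibin. The normalized counts of Tgfbr3 were 40, 11 and 17 in tumours, 797, 752 and 710 in 2D culture, against 830, 786 and 762 in 3D bioink (chromosome 5, 107106570 to 107289629, minus strand). The tumours were far below all 6 cultures, which overlapped with each other. Tgfbr3 was 33.2-fold higher in 2D culture (log2 difference 5.19 ± 0.36 SE, adjusted p = 1.16e-06) and 35.0-fold higher in 3D bioink (5.26 ± 0.36 SE, adjusted p = 1.03e-06) than in tumours. The cultures differed by 0.08 with an interval of -0.73 to 0.88 (adjusted p = 0.872). The log2 ratio of Tgfbr3 to Tgfbr2 was -6.88 ± 0.83 in tumours, -0.98 ± 0.17 in 2D culture, against -1.38 ± 0.12 in 3D bioink (SD, n = 3). Per kilobase of exon, the mean level of Tgfbr3 was 3.72 in tumours against 297 for Tgfbr2 and 129 for Tgfbr1, and in 2D culture it was 124, between Tgfbr2 at 182 and Tgfbr1 at 84.6. In 3D bioink the order was Tgfbr2 at 253, Tgfbr1 at 176 and Tgfbr3 at 130. Tgfbr3 was thus the gene furthest below the other receptors in tumours.

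Tgfbi encodes a secreted matrix protein named for its induction by TGF-beta and abundant in macrophages. It had the largest level per kilobase of the 10 genes in tumours, at 5730, against 108 in 2D culture, against 250.4 in 3D bioink. Its normalized counts were 15757, 15789 and 15106 in tumours, 324, 283 and 276 in 2D culture, against 483, 743 and 813 in 3D bioink (chromosome 13, 56609523 to 56639562, plus strand). The groups were far apart, with 3D bioink replicate 1 the lowest of its group. Tgfbi was 52.8-fold lower in 2D culture (log2 difference -5.72 ± 0.17 SE, adjusted p = 3.10e-09) and 22.9-fold lower in 3D bioink (-4.55 ± 0.17 SE, adjusted p = 1.78e-08) than in tumours, and it rose by 1.17 from 2D culture to 3D bioink (adjusted p = 0.000179). The summed levels of the microglia and macrophage markers given above had the same order of groups, though not every marker did, and their part in this difference was not tested.

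**Figure D3:**
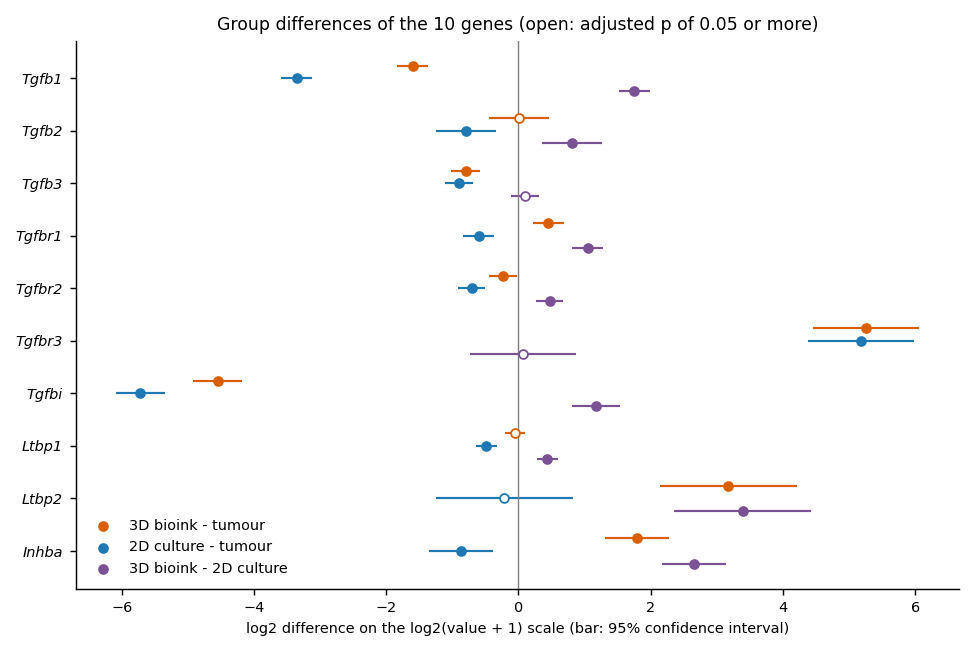
Log2 differences between groups for each of the 10 genes (horizontal axis, log2(value + 1) scale), with bars for the 95% confidence interval, 1 colour per comparison, and open symbols where the adjusted p was 0.05 or more. Tgfbi and Tgfbr3 lie at opposite ends for both cultures against tumours (-5.72 and 5.19 for 2D culture), and 3D bioink minus 2D culture lies above 0 for the 8 called genes.

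The genes whose values followed those of a ligand gene most closely over the 9 libraries, among 10188 ranked, are given by Pearson r; the points share libraries and 3 groups, and an r of this kind is a description of these libraries. For Tgfb1 they were Rsad2 (r = 0.9993), an interferon-induced antiviral enzyme, Stat3 (0.9965) and Acod1 (0.9965), the itaconate-producing enzyme of activated macrophages. Acod1 averaged 2188 in tumours, 8.33 in 2D culture, against 162 in 3D bioink. For Tgfb2 they were Sulf2 (0.9736), Bcl9 (0.9652) and Gramd1b (0.9495), for Tgfb3 Itm2b (0.9958), Hap1 (0.9951) and Trim12a (0.9934), and for Inhba Cyb5d2 (0.9939), Fyco1 (0.9917) and Brwd3 (0.9911).

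Among 20 other genes of TGF-beta latency and activation, 19 were tested: 11 were higher and 6 lower in 3D bioink than in tumours, 6 higher and 10 lower in 2D culture, and 13 higher and 1 lower in 3D bioink than in 2D culture. The median log2 differences were 0.85, -0.28 and 1.02, beside -0.12, 0.01 and -0.02 for all tested genes. Of all tested genes, 27.1% were higher and 37.3% lower in 3D bioink than in tumours (64.4% either way). In 2D culture against tumours these shares were 27.3% and 27.0% (54.3% either way). Between the cultures 27.0% were higher and 32.2% lower in 3D bioink (59.2% either way). The proteoglycans decorin and biglycan, which bind TGF-beta, were high in 3D bioink. Dcn was 1, 0 and 11 in tumours, 3, 4 and 0 in 2D culture, against 329, 405 and 389 in 3D bioink. It passed the filter on low values only through 3D bioink, so no test of it is given. The counts above of genes higher in 3D bioink include Dcn, as do the medians. Bgn averaged 59.7 in tumours, 1010 in 2D culture, against 2647 in 3D bioink, a rise of 5.45 on the log2 scale against tumours (adjusted p = 9.87e-11). Among anchors of latent TGF-beta on cell surfaces, Lrrc32, which encodes GARP, rose in both cultures (2.52 in 3D bioink and 2.84 in 2D culture against tumours). Nrros, the related anchor of microglia and macrophages, fell (-1.87 and -3.04). The activating integrin subunits differed too: Itgb5 fell in both cultures (-2.14 and -1.99), while Itgb8 rose in 3D bioink (1.43 against tumours, adjusted p = 3.92e-06) and differed by 0.27 in 2D culture, short of the threshold (adjusted p = 0.0835), which it passed with equal library totals (0.33, adjusted p = 0.0350), quantile normalization and array weights. Thbs1, which encodes the activator thrombospondin-1, was the 1 gene of the list that fell from 2D culture to 3D bioink (-0.58, adjusted p = 8.96e-05; -0.39 with equal library totals).

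Of 15 genes of the activin and inhibin system, 10 were tested, and 3 rose and 1 fell in 3D bioink against tumours, 4 rose and 3 fell in 2D culture (4 and 1 with quantile normalization), and 2 rose and 2 fell between the cultures (4 and 1 with equal library totals). The median log2 differences were 0.17, 0.18 and 0.46, beside -0.12, 0.01 and -0.02 for all tested genes. Called either way were 64.4%, 54.3% and 59.2% of all tested genes. Inhbb, the subunit of activin B, was 1, 4 and 13 in tumours, 130, 144 and 177 in 2D culture, against 379, 370 and 302 in 3D bioink. Its tumour values lay near 0 and all 6 cultures stood above them, whereas Inhba fell in 2D culture. Since Inhbb passed the filter only through the cultures, no test of it is given. The 3 rises in 3D bioink and 4 in 2D culture against tumours include Inhbb, as do the medians. The stress-induced ligand Gdf15 fell in both (-1.94 and -2.62). Acvr2a, the type II activin receptor, rose by 1.13 from 2D culture to 3D bioink (adjusted p = 7.21e-05), and Fstl3, an activin-binding inhibitor, fell by 0.96 (adjusted p = 0.000270). Gdf11, a ligand close to myostatin, rose in both cultures against tumours (0.78 in 3D bioink and 0.56 in 2D culture). The lower calls of Acvr2a in 2D culture against tumours (-0.38) and of Fstl1 in 3D bioink against 2D culture (-0.25) were each lost under the 3 other scalings.

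All 7 TGF-beta co-receptor and accessory genes were tested: 3 rose and 2 fell in 3D bioink against tumours, 2 rose and 3 fell in 2D culture, and 3 rose and 1 fell between the cultures, with medians of 0.50, 0.18 and 0.27. All tested genes had medians of -0.12, 0.01 and -0.02, and 64.4%, 54.3% and 59.2% of them were called either way. Eng and Acvrl1, endoglin and the endothelial type I receptor ALK1, fell in both cultures. Eng was 610, 603 and 642 in tumours, 36, 42 and 57 in 2D culture, against 126, 107 and 96 in 3D bioink (-3.78 and -2.49 against tumours). Vasn, which encodes the TGF-beta-binding protein vasorin, was 1.91 higher in 3D bioink than in tumours (adjusted p = 6.20e-07), and Cd109, a co-receptor that limits TGF-beta signalling, was higher in both cultures (1.87 and 1.91). Nrp1, which encodes neuropilin-1, was also higher in both (0.50 in 3D bioink, or 0.76 with equal library totals, and 1.16 in 2D culture). Bambi, a pseudoreceptor that blocks signalling, fell in 2D culture against tumours (-1.74; -1.15 with quantile normalization) and rose by 2.01 from 2D culture to 3D bioink. In 3D bioink against tumours Bambi was called higher with equal library totals (0.54) and with quantile normalization (0.51), and not as deposited (0.28, adjusted p = 0.266).

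Of 18 SMADs and regulators, 17 were tested: 10 rose and 5 fell in 3D bioink against tumours, 4 rose and 9 fell in 2D culture (6 and 8 with quantile normalization), and 12 rose and 2 fell between the cultures (14 and 0 with equal library totals). The medians were 0.58, -0.43 and 0.45, beside -0.12, 0.01 and -0.02 for all tested genes. Called either way were 64.4%, 54.3% and 59.2% of all tested genes. Smad7, the inhibitory SMAD that SMAD3 itself induces, was 1100, 973 and 1063 in tumours, 461, 500 and 529 in 2D culture, against 2536, 2918 and 2730 in 3D bioink. The 3 groups were apart, with 3D bioink 2.61-fold above tumours (1.38 ± 0.08 SE, adjusted p = 4.03e-07) and 5.49-fold above 2D culture (adjusted p = 2.07e-08), and 2D culture below tumours (-1.07, adjusted p = 2.39e-06). Skil, a feedback repressor, showed the same order, at 1608 ± 68.0 in tumours, 1099 ± 49.7 in 2D culture, against 3369 ± 180 in 3D bioink (SD, n = 3). Smad3 rose in 3D bioink (0.55 against tumours) and fell in 2D culture (-0.61). Smad4 was not called in any of the 3 comparisons (adjusted p = 0.912, 0.301 and 0.340), although 3D bioink against 2D culture was called under the other scalings. In 3D bioink against tumours, Smad6, an inhibitory SMAD of the BMP branch, rose by 2.19, and Nedd4l, a ubiquitin ligase that acts on SMAD2 and SMAD3, rose from a mean of 117 to one of 326, while Ldlrad4, an inhibitor of SMAD2 and SMAD3 phosphorylation, fell by 1.06. In 2D culture against tumours, Zfyve9, which encodes the SMAD anchor SARA, rose by 0.75, Smad2 rose by 0.59, and the SMAD corepressor gene Tgif1 fell by 1.54. Between the cultures Ldlrad4 was lower in 3D bioink (-0.55, adjusted p = 0.0126), a call lost with equal totals (-0.36) and equal upper quartiles (-0.38), and the lower call of Tgif2 (-0.23) was lost under the 3 other scalings.

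Of 26 target genes, 25 were tested, and they did not move as 1 block: 10 rose and 9 fell in 3D bioink against tumours, 5 rose and 14 fell in 2D culture, and 13 rose and 3 fell in 3D bioink against 2D culture (14 and 1 with equal library totals or equal upper quartiles). The medians were -0.14 (0.05 to 0.13 under other scalings), -0.51 and 0.69, beside -0.12, 0.01 and -0.02 for all tested genes. Called either way were 64.4%, 54.3% and 59.2% of all tested genes. Il11, a fibrosis-related cytokine, rose to between 306 and 326 in 3D bioink from 33 to 71 in tumours and 38 to 67 in 2D culture (2.84 against tumours, adjusted p = 3.55e-05).

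Several other targets were highest in tumours. Pmepa1, a feedback inhibitor, averaged 3142 ± 160 in tumours, 1152 ± 99.0 in 2D culture, against 1309 ± 113 in 3D bioink (SD, n = 3), a fall of 1.45 in 2D culture, against 1.26 in 3D bioink. Ctgf, the matricellular factor CCN2, fell to 1025 ± 41.1 and 965 ± 103 from 1864 ± 140. Acta2, smooth muscle actin, fell from 145 ± 8.19 to 17.3 ± 3.51 in 3D bioink (-3.01, adjusted p = 1.08e-05) and in 2D culture by 1.21, a call lost with quantile normalization (-0.73). Cyr61, the matricellular factor CCN1, also fell in 3D bioink (-1.41; -0.94 with quantile normalization). Junb, an immediate-early transcription factor, was 16970, 16275 and 15577 in tumours, 835, 871 and 934 in 2D culture, against 8341, 7386 and 7297 in 3D bioink. Bhlhe40, a circadian and stress-responsive repressor, was likewise lowest in 2D culture (-2.85 against tumours, and 2.71 from 2D culture to 3D bioink). Angptl4, a lipase inhibitor, was called lower in 3D bioink than in either other group. The call against 2D culture (-0.42) was lost with equal totals and with equal upper quartiles. The call against tumours (-0.33) was lost under the 3 other scalings. The type I collagen genes on the list ran the opposite way. Col1a1 was 656, 675 and 654 in tumours, 5280, 5347 and 5408 in 2D culture, against 7367, 7854 and 7125 in 3D bioink. Col1a2 was 114, 66 and 63 in tumours, 3250, 3354 and 3635 in 2D culture, against 5273, 5777 and 5432 in 3D bioink (6.12 in 3D bioink and 5.43 in 2D culture against tumours). Col3a1, a type III collagen gene of the fibroblast list named after its values were seen, was lower in both cultures than in tumours (-0.51 in 3D bioink, a call lost with quantile normalization, and -2.09 in 2D culture).

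**Figure D4:**
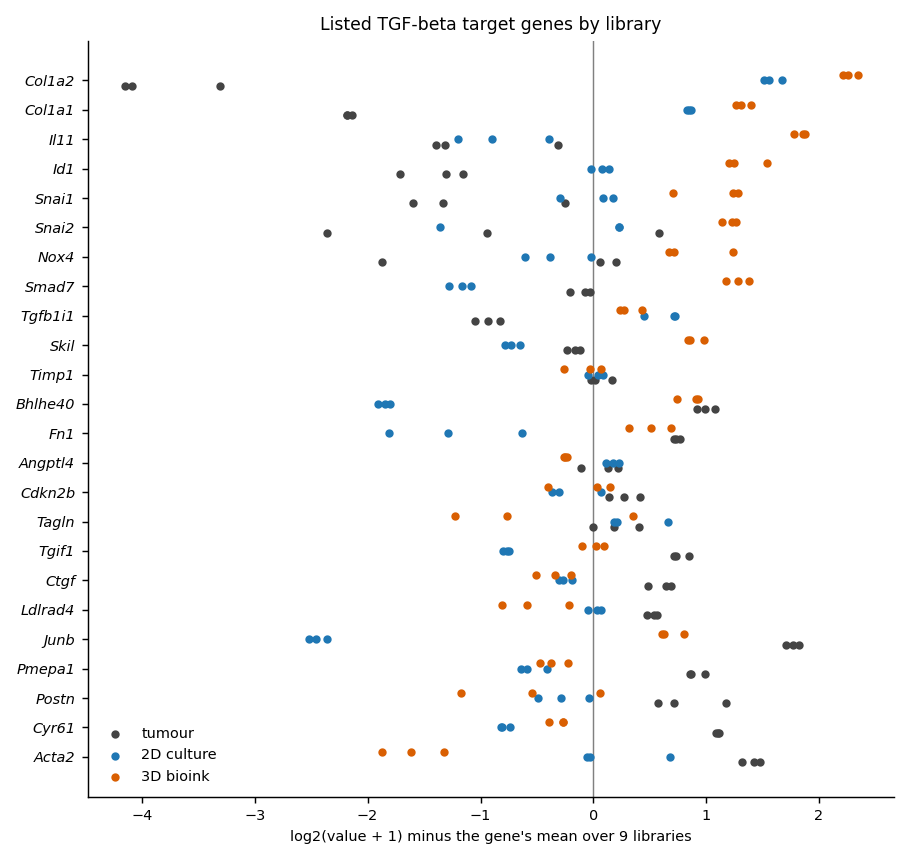
Log2(value + 1) of the tested target genes named on the vertical axis, in each library, minus the gene's mean over the 9 libraries (horizontal axis), with 1 point per library and genes ordered by their 3D bioink minus tumour difference. Smad7, Skil and Il11 are rightmost in 3D bioink, and Pmepa1, Ctgf, Cyr61 and Acta2 are rightmost in tumours.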

How the data were processed

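Bulk RNA sequencing covered 9 libraries, 3 in each of 3 groups. Per the labels' protocols they were made from 25 to 75 ng of RNA with a kit that keeps strand, in 14 cycles of PCR. The authors deposited a score for each symbol in each library, namely a rounded normalized count. The build mm10 and the tools DESeq, DESeq2 1.24.0, RSEM and kallisto are named per the submitters' processing notes, with no role or order, and whether strand was used in counting is not given in the sources used here. Exons of Tgfb2, Tgfb3 and Ltbp2 overlap annotated genes on the opposite strand, and those of Tgfbr3 overlap 1 on the same strand, so their reads cannot be told apart. Depth is unknown, so no counting interval is given.

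From these values, log2(value + 1) was fitted with limma 3.58.1 in R 4.3.3 (all 9 libraries, empirical Bayes with a trend) for the 13773 genes with a mean of at least 10, with Benjamini-Hochberg adjustment over all of them and a threshold of 0.05. Differences are on the log2(value + 1) scale, which understates changes of low genes, and folds are ratios of group means. The fit was tested on simulated data. Ratios were compared by exact permutation over libraries, with an F statistic for the 3 groups and a two-sided difference of means for pairs (Python 3.11.15, scipy 1.17.1). Gene coordinates and exon lengths are GENCODE M21 on GRCm38, the assembly also called mm10. The 10 genes and all lists were chosen with earlier results of these data known. Named from each pathway list were the 2 largest rises and falls among called genes whose groups were apart and whose higher group averaged 100 or more, a few fixed genes (Smad7, Skil, Pmepa1 and Ctgf), and others chosen after their values were seen. The values of 1 listed gene, which the counts include, are not reported here. The alternatives were other pseudocounts, filters and scalings, a fit without trend, array weights, a fit of only the groups compared, a replicate block and leaving out each library. Replicate numbers do not pair libraries: deviations of same-numbered libraries correlated at -0.033 to 0.080.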

Additional observations from a re-analysis of the deposited data

How the results depend on the processing

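The counts of the 10 genes called higher and lower, in 120 of 120 alternative results, and the 4 ratios, in 52 of 52, stayed within the margin set (1.5 times for counts, the same side of the threshold for ratios). For single genes, 181 of 200 alternatives kept direction and call for 3D bioink against tumours, 196 of 200 for 2D culture against tumours and 198 of 200 for 3D bioink against 2D culture. The totals of pathway list genes called in either direction also stayed within 1.5 times in 255 of 255, but counts in 1 direction moved further for the activin, SMAD and target lists, as given above. The sign turned for 4 differences, of which Tgfbr2 alone had been called. Tgfb2 in 3D bioink against tumours was -0.01 without tumour replicate 2, -0.08 without tumour replicate 3 and -0.17 without 3D bioink replicate 2, with a range of -0.17 to 0.18 over all libraries left out. Tgfbr2 in the same comparison was 0.027 with equal library totals. Ltbp1 there was 0.21 with equal totals, 0.13 with equal upper quartiles and 0.125 with quantile normalization. Ltbp2 in 2D culture against tumours was 0.52 with quantile normalization and 0.21 without tumour replicate 3, with a range of -0.53 to 0.21 over libraries left out. The cause was not tested. The call of Tgfbr2 was also lost without a filter on low values, without the trend and with only the 2 groups fitted (adjusted p = 0.0559, 0.0900 and 0.0674). Other calls of the 10 genes that were gained or lost are given beside each gene above.

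With replicate number as a block, 4 of the 10 genes were higher and 4 lower in 3D bioink against tumours, 1 and 8 in 2D culture against tumours and 8 and 0 between the cultures, as without it, and all genes called numbered 8795, 7357 and 8039 against 8869, 7474 and 8148. A library matched best with its own number in 9 of 18 comparisons. Quantifying low genes such as Ltbp2 and Tgfbr3 in tumours is limited by an unknown depth.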

Other observations

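The remaining marker lists describe what else the libraries held. Beside their counts, 27.1% of all tested genes were higher and 37.3% lower in 3D bioink than in tumours. In 2D culture against tumours the shares were 27.3% and 27.0%. Summed normalized counts of 11 T and NK cell markers were 564 to 719 in tumours, 87 to 103 in 2D culture, against 212 to 304 in 3D bioink. Nkg7 and Gzmb were listed at 0 in both cultures. Of the 7 tested, 6 were lower in 2D culture and 3 in 3D bioink than in tumours. These counts include Gzmb, which passed the filter on low values only through the tumours. They also include Cd3e, which had low culture values. Its log2 difference was -4.62 in 2D culture and -4.29 in 3D bioink. With 10 added to each value in place of 1, these were -1.97 and -1.89. For 6 platelet markers the sums were 258 to 288, 41 to 67 and 134 to 153. Of the 2 tested, Itga2b was higher in 3D bioink than in either other group. Pf4, listed at 0 in both cultures, passed the filter on low values only through the tumours, so no test of it is given. Endothelial markers summed to 6113 to 6450 in tumours, 4911 to 5267 in 2D culture, against 5835 to 8114 in 3D bioink, and of the 10 tested 2 were higher and 3 lower in 3D bioink, and 1 higher and 5 lower in 2D culture, than in tumours. Astrocyte markers summed to 5431 to 5838, 6264 to 6491 and 6932 to 7414, and 4 of the 9 tested were higher and 2 lower in 3D bioink than in tumours. Oligodendrocyte markers summed to 4799 to 5741, 7593 to 7899 and 6308 to 6722, with Mag listed at 0 in both cultures. Of the 6, 3 were lower in 3D bioink and 4 in 2D culture than in tumours. These counts include Mag, which passed the filter on low values only through the tumours. Neuron markers summed to 67 to 143, 58 to 90 and 310 to 363, and 1 of 6, Syt1, was tested and was higher in 3D bioink than in either other group.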
